A study of Mus musculus with 16 samples.

Results

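To describe the genes of the cytoplasmic ribosome in the adult prefrontal cortex, their mRNA levels were examined in the medial prefrontal cortex of 16 male C57BL/6N mice at postnatal day 120. The members were the protein-coding genes whose symbol begins with Rpl or Rps and a number, together with Rplp0, Rplp1, Rplp2 and Rpsa, without the Rps6 kinases, Rps19bp1 and pseudogenes named as such. This rule gave 83 of the 18424 genes in the table, 50 of the large and 33 of the small subunit. Genome editing gave a truncating mutation in exon 5 of Arid1b. The study describes it as a TT insertion and, in its methods, as a deletion with that insertion. The animals were either wild type (WT) or carried 1 mutant copy of Arid1b (heterozygous, HT). Their dams drank saccharin water (0.2%) with fluoxetine (Flx, 0.1 mg per ml), a selective serotonin reuptake inhibitor, or without it (vehicle, Veh) from postnatal day 3 to 21, so that pups received the drug through milk. All mice drank normal water after weaning at day 21. There were 4 mice each in WT-Veh, HT-Veh, WT-Flx and HT-Flx, and values listed per mouse follow replicates 1 to 4. The treatment was given per dam, and the labels do not say which mice shared a litter, so p-values measure the spread between these mice only. Values are normalized read counts, that is, estimated read counts of a gene divided by a DESeq2 factor, and log2 values are of this count plus 1. The depth behind them is unknown.

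The ribosome builds proteins from mRNA. Its small subunit reads the mRNA and its large subunit joins the amino acids, and nearly every one of their proteins is needed in a fixed number of copies. The mRNAs of these proteins are short, abundant and present in all cells, and most begin with a run of pyrimidines, the terminal oligopyrimidine (TOP) tract, through which mTOR signalling and the protein LARP1 set how strongly they are translated. In neurons they are also found in dendrites and axons.

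Libraries stood apart within groups, and unevenly between groups, with no HT-Flx mouse among those high for olfactory bulb markers. Markers of the olfactory bulb (10 genes, listed with earlier results of these data known) had a mean log2 level of 9.09 in WT-Veh replicate 1, 6.79, 7.32 and 8.61 in WT-Flx replicates 1, 2 and 4, and 7.23 in HT-Veh replicate 4, and of between 3.21 and 4.41 in the other 11 mice. None of the 10 was at 0 in every mouse of a group, and 4 of the 10 had a mean under 10 in HT-Flx. Markers of cortical neurons were high in all mice (11.8 to 12.4), with the lowest level in WT-Veh replicate 1. Arid1b itself was at 2368 ± 432 in WT-Veh, 1795 ± 160.2 in HT-Veh, 2159 ± 233 in WT-Flx and 1636 ± 61.0 in HT-Flx (mean ± SD of 4 mice). The HT-Flx and WT-Flx mice did not overlap (exact permutation p = 0.0286, the smallest possible), while HT-Veh and WT-Veh did (exact permutation p = 0.0857). The library labelled WT-Veh replicate 1 had Arid1b at 1787, inside the HT-Veh range of 1619 to 2005. It lay below the 2401 to 2831 of the other WT-Veh mice, so that this check of the target gene does not bear out its label. WT-Flx replicate 1, at 1902, was also inside that HT-Veh range, though above the HT-Flx mice at 1545 to 1671. These 2 libraries were also the highest for short transcripts, as given below (8.07 and 7.98). The part of that, or of bulb tissue, in their Arid1b level was not tested. Summed normalized counts were within 92.8% to 104% of their mean. In bulk tissue, fewer cells of a type and less RNA per cell cannot be told apart.

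The start of the mRNA is shown for members on which the results below turn, since it carries the TOP tract. RefSeq start windows (GRCm38.p6) were matched for 63 of the 83 members. A tract, taken as C followed by at least 4 bases that are each C or T on the sense strand, began exactly at the first listed start in 13 of the 63 members (20.6%) and in 673 of 27025 genes of the table of starts (2.49%). It began within 5 bases of the start in 29 members (46.0%) and in 18.5% of all genes. Each line below gives 30 bases, 10 before the listed start and 20 from it, 5′ to 3′, with the tract nearest the start in capitals. A window without capitals says only that no such letters begin within 5 bases of that listed start.
Rps6, chr4:86857348-86857377 (-): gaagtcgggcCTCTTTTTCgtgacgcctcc
Rplp2, chr7:141447641-141447670 (+): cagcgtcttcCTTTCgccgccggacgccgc
Rps10, chr17:27635225-27635254 (-): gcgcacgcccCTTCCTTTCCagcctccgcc
Rps27, chr3:90213629-90213658 (-): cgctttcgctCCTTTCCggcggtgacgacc
Rps27rt, chr9:114982720-114982749 (-): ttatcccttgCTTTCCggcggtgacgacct
Rpl34, chr3:130730379-130730408 (-): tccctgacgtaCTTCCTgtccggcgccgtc
Rpl13a, chr7:45128726-45128755 (-): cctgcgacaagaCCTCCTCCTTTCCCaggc
Rpl22l1, chr3:28805498-28805527 (+): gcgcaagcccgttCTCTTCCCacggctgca
Rpl24, chr16:55966265-55966294 (+): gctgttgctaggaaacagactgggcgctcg
Rpl9, chr5:65391412-65391441 (-): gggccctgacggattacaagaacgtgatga
Rpsa, chr9:120127756-120127785 (+): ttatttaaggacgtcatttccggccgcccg
Rpl23, chr11:97782420-97782449 (-): gtccggtcacgtggctgagtgggcggggcc
Rpl10, chrX:74270806-74270835 (+): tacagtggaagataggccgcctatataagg

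Among these, Rps6, Rplp2, Rps10, Rps27 and Rps27rt have the tract at the first base. Of the members described below for a lower mean in WT-Flx, Rpl34, Rpl13a and Rpl22l1 have it within 5 bases of the listed start and Rpl24 and Rpl9 do not. Of those whose windows are not shown, Rps27l has it and Rpl41, Rpl7l1 and Rps3 do not. Of those with a higher mean there, Rplp2 has it and Rpsa and Rpl23 do not.

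Ribosomal protein mRNAs were abundant. Their mean value over 16 mice had a median of 2372, against 579 over all protein-coding genes. Together they held 0.731% to 1.22% of a mouse's summed normalized counts. Their transcripts were short, with a median of 774 bases against 2911 for other protein-coding genes, and 73.5% were at most 1000 bases long, against 5.98%. GC content was alike, at 51.6% and 50.7%. Per kilobase (kb) of transcript, the median level of members was 3727 and that of other protein-coding genes 200.3. The highest per-kb levels were those of Rplp1 (10700.0), a protein of the acidic stalk of the large subunit, of Rps15 (10634) and of Rpl41 (9275), the smallest ribosomal protein. The lowest were those of Rpl3l (5.08), the form of Rpl3 found in striated muscle, of Rpl12 (235) and of Rps27 (244). These levels rest on 1 representative transcript per gene. For a few members, such as Rps15a (5130 bases) and Rps20 (3706 bases), that transcript was far longer than the rest, which lowers their level per kb.

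**Figure D1:**
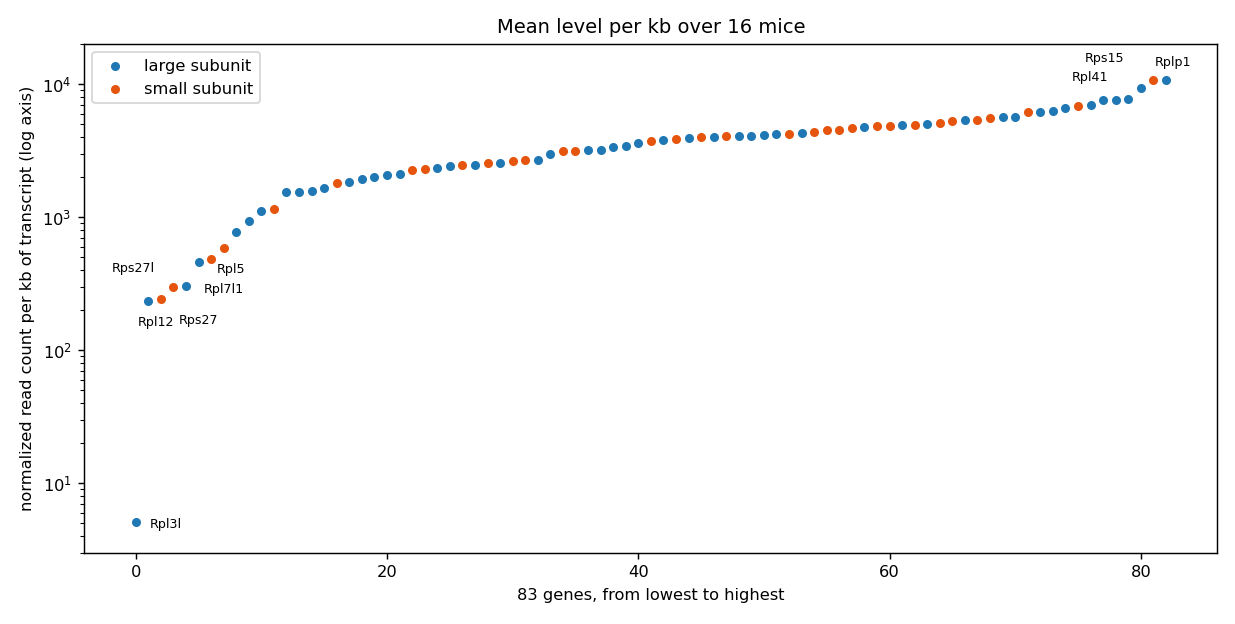
Mean normalized read count per kb of transcript over 16 mice, on a log axis, for 83 ribosomal protein genes ordered from lowest to highest, with large subunit genes in blue and small subunit genes in orange. Rpl3l lies at 5.08, far below the rest, and Rplp1 is highest at 10700.0.

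The acidic stalk, which recruits the elongation factors to the large subunit, is made of Rplp0, Rplp1 and Rplp2. Rplp0 was at 3539 ± 625 in WT-Veh, 3411 ± 162 in HT-Veh, 3369.8 ± 511 in WT-Flx and 3149 ± 184 in HT-Flx (normalized read count, mean ± SD, n = 4 in every group here and below). Rplp1 was at 5693 ± 1057 in WT-Veh, 5516 ± 556 in HT-Veh, 5141 ± 1026 in WT-Flx and 5006 ± 329 in HT-Flx. For both, the group means differed by less than the SD of WT-Veh. Rplp2 was at 2037 ± 379 in WT-Veh, 1871 ± 86.4 in HT-Veh, 2302 ± 437 in WT-Flx and 1749.5 ± 163 in HT-Flx, with its highest mean in WT-Flx.

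Rpl5 and Rpl11 join the 5S RNA and, when not built into ribosomes, bind Mdm2, the ubiquitin ligase of p53. Rpl5 was at 962 ± 64.3 in WT-Veh, 943 ± 58.8 in HT-Veh, 980.1 ± 89.2 in WT-Flx and 876 ± 145 in HT-Flx, and Rpl11 at 3619.7 ± 552 in WT-Veh, 3359.5 ± 119 in HT-Veh, 3573 ± 566 in WT-Flx and 3169 ± 185 in HT-Flx. Rpl10, which is added late to the large subunit, was at 650.0 ± 71.3 in WT-Veh, 556 ± 88.9 in HT-Veh, 567 ± 195 in WT-Flx and 683 ± 60.3 in HT-Flx, with the widest spread in WT-Flx. Rpl13a and Rpl19 are often used as reference genes. Rpl13a was at 6179.6 ± 1029 in WT-Veh, 5248 ± 645 in HT-Veh, 4587 ± 741 in WT-Flx and 4917 ± 590.1 in HT-Flx, so that its WT-Veh and WT-Flx means lay more than 1 SD apart. Rpl19 was at 6277 ± 1142 in WT-Veh, 5672 ± 193 in HT-Veh, 5918 ± 1066 in WT-Flx and 5319 ± 202 in HT-Flx. Rpl32, another common reference gene, was at 2087 ± 376 in WT-Veh, 2018 ± 69.8 in HT-Veh, 1957 ± 285 in WT-Flx and 2004 ± 179 in HT-Flx. Rpl22 was at 2037 ± 339 in WT-Veh, 1928 ± 155 in HT-Veh, 1870.5 ± 232 in WT-Flx and 1822 ± 108 in HT-Flx, and Rpl41 at 5952 ± 856 in WT-Veh, 5144 ± 758 in HT-Veh, 4437 ± 947 in WT-Flx and 4649.8 ± 537 in HT-Flx.

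In the small subunit, Rps6 is the protein that S6 kinase phosphorylates downstream of mTOR. It was at 3762 ± 792 in WT-Veh, 3684 ± 578 in HT-Veh, 3078 ± 833 in WT-Flx and 3521 ± 415 in HT-Flx. Rps19, the protein most often mutated in Diamond-Blackfan anaemia, was at 2160.1 ± 476 in WT-Veh, 1884 ± 206 in HT-Veh, 1751 ± 450.1 in WT-Flx and 1845 ± 165 in HT-Flx. Rps27a, made as a fusion with ubiquitin, was at 3507 ± 774 in WT-Veh, 3179.7 ± 234 in HT-Veh, 3013 ± 490.4 in WT-Flx and 2842 ± 331 in HT-Flx. Rps18 was at 2837 ± 522 in WT-Veh, 2549 ± 223 in HT-Veh, 2279 ± 423 in WT-Flx and 2517 ± 225 in HT-Flx. Rpsa, also known as a laminin receptor, was at 7902 ± 1021 in WT-Veh, 7619 ± 571 in HT-Veh, 9725 ± 1095 in WT-Flx and 7178 ± 865 in HT-Flx, with its highest mean in WT-Flx. 

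Of the 6 members named after another member, Rpl22l1 (coding sequence 67.5% identical to that of Rpl22) was at a mean of 613 over 16 mice, against 1914 for Rpl22. Rpl7l1 (54.4% identical) was at 792 against 3979 for Rpl7. Rpl36al (87.7%) was at 868 against 1019.5 for Rpl36a. Rpl3l (73.2%) was at 6.98 against 9342 for Rpl3, with values between 0 and 13.9. Rps27l and Rps27rt are described with Rps27 below. Rpl3l was the 1 member that did not pass the filter on low values in the comparisons of 2 groups.

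Rps27, a zinc-finger protein of the small subunit, has a spliced gene (chr3:90212522-90213651) and a copy, Rps27rt (chr9:114982366-114982739, both on the minus strand of GRCm38), whose coding sequence is the same in all 252 bases. It is printed once, with the first codon in capitals, because reads within it cannot be told apart between the genes.
Rps27 and Rps27rt coding sequence: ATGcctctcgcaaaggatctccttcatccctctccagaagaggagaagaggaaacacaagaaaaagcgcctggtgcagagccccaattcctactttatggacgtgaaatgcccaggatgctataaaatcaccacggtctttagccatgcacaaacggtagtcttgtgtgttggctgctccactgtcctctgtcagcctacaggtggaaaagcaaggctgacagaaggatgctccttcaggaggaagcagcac
The values were assigned mostly to Rps27rt. Rps27 was at 95.02, 59.6, 41.5 and 55.9 in WT-Veh, 57.3, 72.4, 56.1 and 50.3 in HT-Veh, 94.7, 59.6, 67.0 and 68.3 in WT-Flx, and 62.6, 66.4, 356 and 84.4 in HT-Flx. HT-Flx replicate 3 was far above every other mouse. Rps27rt was at 1755 ± 356 in WT-Veh, 1671 ± 141 in HT-Veh, 1404 ± 319 in WT-Flx and 1505 ± 124 in HT-Flx. Their sum was 1818 ± 378 in WT-Veh, 1729.8 ± 138 in HT-Veh, 1476 ± 334 in WT-Flx and 1647 ± 113 in HT-Flx. Rps27 held 20.6% of the sum in HT-Flx replicate 3 and 2.65% to 5.32% in the other 15 mice. Rps27l, whose coding sequence is 76.2% identical to that of Rps27, was at 178 ± 38.4 in WT-Veh, 157 ± 33.0 in HT-Veh, 121 ± 28.5 in WT-Flx and 144 ± 18.1 in HT-Flx.

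Other members may share reads with copies elsewhere, whose sequences were not compared here, so their values are uncertain. The table lists 18 genes with a ribosomal protein pseudogene symbol, which are not members and came to 4.87% of the members' summed value on average. Rpl10-ps3, named as a pseudogene of Rpl10, was at 3474 on average, above Rpl10 itself at 614. Rps6-ps4 was at 766, 824, 565 and 984 in WT-Veh, 457, 730.4, 1007 and 0 in HT-Veh, 1284, 1933, 1413 and 2006 in WT-Flx, and 1292, 729, 294 and 0 in HT-Flx. It was listed at 0 in 2 mice, and WT-Flx lay above WT-Veh without overlap, while Rps6 had its lowest mean in WT-Flx. Rpl10-ps3 and Rps6-ps4 were named after their values were seen.

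The members moved together across mice. The mean of their log2 levels was 11.51, 11.06, 11.01 and 11.05 in the WT-Veh mice, and 11.36, 10.78, 10.88 and 11.12 in WT-Flx. It was 11.10, 11.01, 11.00 and 11.13 in HT-Veh, and 11.01, 10.93, 11.02 and 11.11 in HT-Flx. WT-Veh replicate 1 and WT-Flx replicate 1 were the 2 highest mice and WT-Flx replicate 2 the lowest, so the spread was widest among WT mice and every group overlapped the others. All 83 members were above their own mean over 16 mice in WT-Veh replicate 1, and 62 had their highest value there. WT-Flx replicate 2 held the lowest value of 42 members. The large and small subunits moved alike, at 11.46 and 11.58 in WT-Veh replicate 1 and at 10.73 and 10.87 in WT-Flx replicate 2.

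The same 2 mice were highest for other short transcripts. The mean log2 level of 835 other protein-coding genes with transcripts of at most 1000 bases was 8.07 in WT-Veh replicate 1 and 7.98 in WT-Flx replicate 1, and between 7.60 and 7.77 in the other 14 mice, with HT-Flx replicate 2 lowest. The olfactory bulb markers were high in WT-Veh replicate 1 and WT-Flx replicate 1, and also in WT-Flx replicate 2, the mouse with the lowest ribosomal protein level. The part of either score in the level of the members was not tested beyond the fits with a covariate given below.

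**Figure D2:**
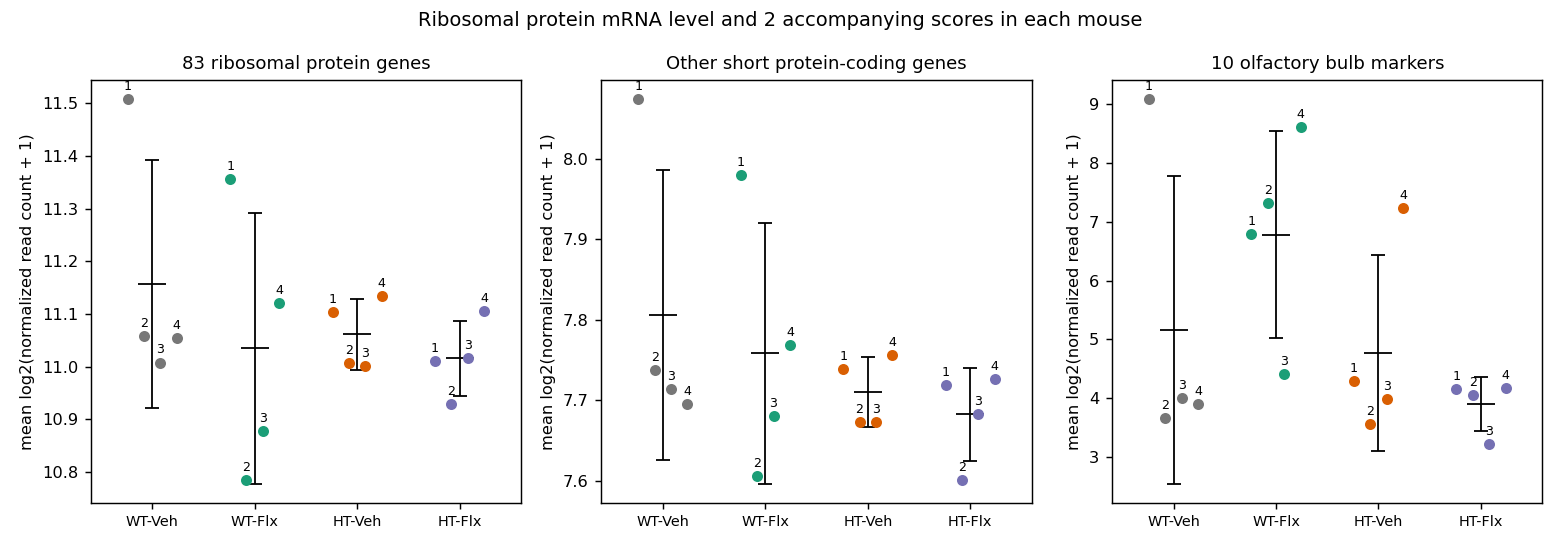
Mean log2(normalized read count + 1) in each of 16 mice, for 83 ribosomal protein genes, for 835 other protein-coding genes with a transcript of at most 1000 bases and for 10 olfactory bulb markers. Points are mice, numbered by replicate, and bars give the group mean ± SD. WT-Veh replicate 1 is highest in all 3 panels, at 11.51, 8.07 and 9.09.

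Over the 16 mice, the median correlation between 2 members was 0.697, over 3403 pairs that share libraries and normalization. Rps9 followed the mean of the other members most closely (r = 0.980). Those that followed it least were Rpl7l1 (r = -0.053), Rps27 (0.140) and Rpsa (0.361). The steadiest members were Rpl4, Rpl7 and Rpl6, with an SD of log2 levels over all mice of 0.123, 0.128 and 0.143. The most variable were Rpl3l (1.02), Rps27 (0.686) and Rpl24 (0.468), where Rpl3l is near the lower end of detection. The median SD of members was 0.203, close to the 0.201 of all protein-coding genes that passed the filter.

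To determine the effect of genotype without the drug, HT-Veh was compared with WT-Veh. No ribosomal protein gene differed by limma at an adjusted p under 0.05, a call that 0.0178% of all 16832 genes received, and none had an unadjusted p under 0.05 (2.63% of all genes were higher and 2.26% lower at that p). The smallest adjusted p of a member was 0.922. Of the 82 members tested, 5 had a higher and 77 a lower mean in HT-Veh, against 51.8% and 48.2% of all genes. Their median log2 change was -0.090, against 0.0062 over all 16832 genes, -0.10 over 775 other protein-coding genes with a short transcript and -0.10 over 78 genes of mitochondrial ribosomal proteins. The median of the members was thus close to that of other short transcripts. It rested on 1 mouse, the library labelled WT-Veh replicate 1, whose Arid1b level lay in the HT-Veh range: without it the median over members was 0.030 (3.7e-04 over all genes), and 57 members had a higher and 25 a lower mean in HT-Veh.

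The members with the smallest p in this comparison were all far from the threshold. By limma, Rpl13a had a log2 difference of -0.23 ± 0.12 (± SE), Rpl10 of -0.23 ± 0.13 and Rpl22l1 of -0.27 ± 0.16, with unadjusted p of 0.0944 to 0.115 and adjusted p = 0.922 for each. Rpl7l1 (0.060 ± 0.11), Rpl37 (0.034 ± 0.13) and Rps4x (0.026 ± 0.10) were the higher members of smallest p, and each changed sign when a single mouse was left out. No member separated the groups, whereas 2.06% of all genes were higher and 1.78% lower in HT-Veh without overlap.

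Early fluoxetine in heterozygous animals was examined as HT-Flx against HT-Veh, the groups with the narrowest spread of ribosomal protein levels. Again no member passed the adjusted threshold, nor did any gene of the table (0%), and by limma 1 member was higher and 3 were lower at an unadjusted p under 0.05 (1.43% and 1.64% of all genes). Of the 82 members, 11 had a higher and 71 a lower mean in HT-Flx (51.2% and 48.8% of all genes). Over these members the median log2 change was -0.080, against 0.0030 over all 16814 genes, -0.035 over 770 other protein-coding genes with a short transcript and -0.027 over 78 genes of mitochondrial ribosomal proteins. This median stayed below 0 in all 22 alternative fits, from -0.10 to -0.037. These fits share mice and are not independent checks. Leaving out all mice with high bulb markers was here the same fit as leaving out HT-Veh replicate 4. The replicate block kept the median at -0.080 by design.

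Rps10, a protein of the head of the small subunit, was at 2670.4, 2249, 2382 and 2455 in HT-Veh and at 2000.2, 1985, 2045 and 2209 in HT-Flx. The HT-Flx mice all lay below the HT-Veh mice. The log2 difference was -0.24 ± 0.072 (unadjusted p = 0.00560, adjusted p = 1.00 by limma). Rps4x, encoded on the X chromosome, differed by -0.16 ± 0.067 on the log2 scale, also without overlap, and Rps15a by -0.23 ± 0.085 with overlap. Rpl10, another X-linked gene, went the other way, at 635, 429.8, 562 and 596 in HT-Veh and 636, 664, 660.4 and 771 in HT-Flx. Each HT-Flx mouse was above each HT-Veh mouse, with a log2 difference of 0.31 ± 0.12 (unadjusted p = 0.0279). For Rps10, Rps4x and Rpl10 the exact permutation test gave 0.0286, the smallest p possible with 4 mice against 4. Without overlap, 1 member was higher and 4 were lower (the other 2 were Rps7 and Rpl26), against 0.934% and 1.05% of all genes. Rpl37 (0.18 ± 0.094) and Rps27 (0.85 ± 0.45) were the other higher members of smallest p, and without HT-Flx replicate 3 the value of Rps27 was 0.27.

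Early fluoxetine in wild-type animals was examined as WT-Flx against WT-Veh. Here members lay widely to both sides of 0. By limma 3 were higher and 10 lower in WT-Flx at an unadjusted p under 0.05, where 2.2% and 2% of all genes were, and none passed the adjusted threshold (0% of all genes). Means were higher for 23 and lower for 59 members (49.8% and 50.2% of all genes). Their median log2 change was -0.089, against -9.1e-04 over all 16833 genes, -0.060 over 781 other protein-coding genes with a short transcript and -0.036 over 78 genes of mitochondrial ribosomal proteins. The middle 50% of members spanned -0.25 to 0.0042, wider than the -0.13 to -0.038 of HT-Veh versus WT-Veh. Without WT-Veh replicate 1 the median was 0.028 (-0.0049 over all genes), and without WT-Flx replicate 1 it was -0.19 (0.015 over all genes).

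The 3 higher members of smallest p were Rpsa, Rpl23 and Rpl21. Rpsa was at 9415, 7371, 7604 and 7217 in WT-Veh and at 10234, 9178, 8511 and 10976 in WT-Flx. All WT-Flx values lay above those of WT-Veh replicates 2 to 4. The log2 difference was 0.30 ± 0.11 (unadjusted p = 0.0239, adjusted p = 1.00 by limma). Rpl23, of the large subunit, was at 4248, 3336, 3183 and 3410.0 in WT-Veh and 4813, 3959.8, 3750.3 and 4798 in WT-Flx, a log2 difference of 0.29 ± 0.12. Rpl21 was at 6792, 5165, 4638 and 4984 in WT-Veh and 7777, 5917, 5811 and 7388 in WT-Flx, a log2 difference of 0.32 ± 0.14. In Rpl23 and Rpl21, as in Rpsa, the groups overlapped only through the high value of WT-Veh replicate 1. With the level of olfactory bulb markers as a covariate, Rpsa differed by 0.19 ± 0.075 and Rpl23 by 0.18 ± 0.088. In that fit 7 members were higher and 75 lower, with a median of -0.21, against 0.0092 over all genes.

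The 3 lower members of smallest p were Rpl22l1, Rpl9 and Rpl34, all of the large subunit. Rpl22l1 was at 904, 688, 576 and 778 in WT-Veh and 640.4, 377, 404 and 448 in WT-Flx, and overlapped through WT-Flx replicate 1. The log2 difference was -0.67 ± 0.19 (unadjusted p = 0.00476), while Rpl22, the gene it is named after, differed by -0.12 ± 0.13. Rpl9 was at 6257, 5071, 4436 and 5586 in WT-Veh and 4857, 2885, 3492 and 3643 in WT-Flx, a log2 difference of -0.54 ± 0.16. Rpl34 was at 2115, 1519.7, 1392 and 1559 in WT-Veh and 1471, 1034, 1036 and 1189 in WT-Flx, a log2 difference of -0.47 ± 0.15. Again only WT-Flx replicate 1 reached the WT-Veh values. With the bulb covariate, Rpl22l1 differed by -0.77 ± 0.18, Rpl9 by -0.60 ± 0.16 and Rpl34 by -0.60 ± 0.13. Rpl13a (-0.43 ± 0.14), Rpl41 (-0.44 ± 0.16), Rpl7l1 (-0.38 ± 0.14), Rpl24 (-0.71 ± 0.27), Rps14 (-0.52 ± 0.20), Rps3 (-0.30 ± 0.12) and Rps27l (-0.56 ± 0.22) were the other lower members at an unadjusted p under 0.05. Of the members tested, Rps27l was the only one to separate the groups, at 178 and 121 on average (1.09% of all genes were lower and 1.81% higher without overlap).

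In WT-Flx versus WT-Veh, calls of members depended on the mice included and on a covariate. With the level of short transcripts as a covariate, Rpl24 passed the adjusted threshold, at a log2 difference of -0.59 ± 0.063 (adjusted p = 0.0143). In that fit 6 of all 16833 genes passed. By limma without WT-Veh replicate 1 and WT-Flx replicates 1 and 4, Rpl24 (-0.86, adjusted p = 0.00814), Rps14 (-0.61, 0.0323) and Rpl34 (-0.52, 0.0380) passed, as 3 of the 25 genes that passed among 16243. That fit had 3 WT-Veh and 2 WT-Flx mice. The mice left out were picked from the same data. For all 3 genes they were the highest of their groups, so these differences depend on that choice. When WT-Flx replicate 2 was also left out, Rpl24 differed by -0.78. That leaves WT-Flx replicate 3 as the single mouse of its group and assumes that it varies like WT-Veh. Rpl24, a protein at the face of the large subunit that meets the small one, was at 3808, 2232, 2062 and 1935 in WT-Veh and at 2377, 1086, 1207 and 1503 in WT-Flx. In each group replicate 1 was the highest mouse, and in the fit with all 8 mice Rpl24 had an adjusted p of 1.00.

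To compare genotypes after fluoxetine, HT-Flx was compared with WT-Flx. By limma 3 members were higher and 6 lower in HT-Flx at an unadjusted p under 0.05, close to the background of 5.58% and 4.87% of all genes, and none passed the adjusted threshold (0.0417% of all genes). Means were higher for 33 and lower for 49 members (51.6% and 48.4% of all genes). Over these members the median log2 change was -0.044, against 0.0081 over all 16788 genes, -0.065 over 778 other protein-coding genes with a short transcript and -0.088 over 78 genes of mitochondrial ribosomal proteins. Without WT-Flx replicate 1 the median over members was 0.040 (0.0073 over all genes).

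Rpl30, which sits on the large subunit near the small one, was at 2862, 2446, 2472 and 3074 in WT-Flx and at 2217, 1939, 1890.4 and 2027 in HT-Flx. The log2 difference was -0.42 ± 0.10 (unadjusted p = 0.00128, adjusted p = 0.289 by limma). Rpl23 differed by -0.46 ± 0.11, at 3685, 2939.6, 2943 and 3009 in HT-Flx. Rpsa differed by -0.44 ± 0.11, at 8360.3, 6403, 7258 and 6690.0 in HT-Flx. Rpl21 differed by -0.40 ± 0.11. Rplp2 (-0.38 ± 0.13) and Rpl35 (-0.36 ± 0.13) were the other lower members at an unadjusted p under 0.05. In Rpl30, Rpl23, Rpsa and Rpl21, that is in 4 members, every HT-Flx mouse was below every WT-Flx mouse (4 of the 82 members, against 3.13% of all genes; no member was higher without overlap, against 2.7%), and the exact permutation p of each was 0.0286, the smallest possible. The higher members of smallest p were Rpl24 (0.70 ± 0.22, unadjusted p = 0.00703), Rpl7l1 (0.38 ± 0.13) and Rpl22l1 (0.46 ± 0.18), with adjusted p of 0.344 to 0.409. The mean level of olfactory bulb markers was 6.78 ± 1.76 in WT-Flx and 3.90 ± 0.461 in HT-Flx. The lowest WT-Flx mouse, at 4.41, was above the highest HT-Flx mouse, at 4.18. A fit with that level as a covariate therefore extrapolates and cannot fully separate it from the group. With that level as a covariate, Rpl30 differed by -0.23 ± 0.16, Rpl23 by -0.23 ± 0.17 and Rpsa by -0.23 ± 0.17. The higher members Rpl24 and Rpl22l1 differed by 0.83 ± 0.36 and 0.51 ± 0.30. In that fit 61 members were higher and 21 lower, with a median of 0.085, against 0.014 over all genes.

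**Figure D3:**
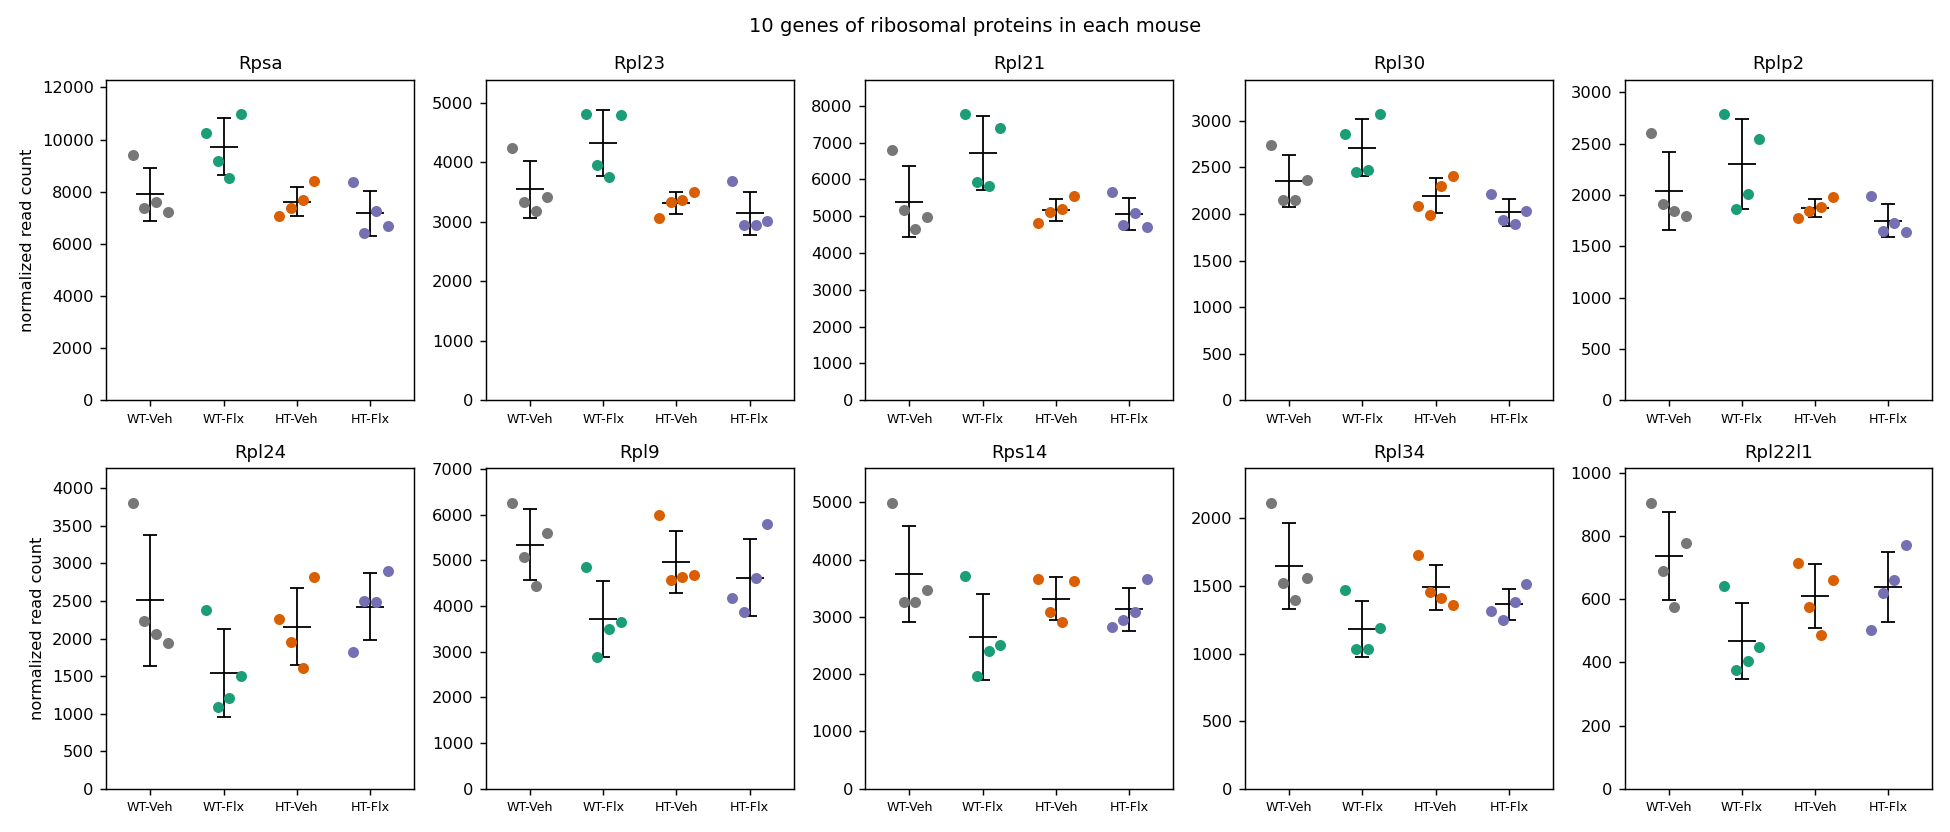
Normalized read counts of 10 ribosomal protein genes in each mouse, by group, with axes from 0. Points are mice in the order of their replicate number, and bars give the mean ± SD. Rpsa, Rpl23, Rpl21, Rpl30 and Rplp2 have their highest mean in WT-Flx, and Rpl24, Rpl9, Rps14, Rpl34 and Rpl22l1 their lowest.

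The interaction tested whether the fluoxetine difference in HT minus that in WT departs from 0. By limma no member passed the adjusted threshold (0% of all 17567 genes). At an unadjusted p under 0.05, 3 members had a positive and 4 a negative interaction (2% and 2.29% of all genes). Those of smallest p were Rpl22l1 (0.73 ± 0.25, unadjusted p = 0.00980), Rpsa (-0.39 ± 0.15, 0.0178) and Rpl24 (0.89 ± 0.34, 0.0187), all with adjusted p = 0.998. Rpl10 (0.56 ± 0.25) was the third positive member, and Rpl21 (-0.36 ± 0.17), Rpl23 (-0.37 ± 0.15) and Rpl30 (-0.33 ± 0.14) the other negative ones. Over the 83 members 49 had a positive and 34 a negative value, against 50.3% and 49.7% of all genes. Their median log2 change was 0.036, against 0.0021 over all 17567 genes, 0.040 over 809 other protein-coding genes with a short transcript and 0.025 over 78 genes of mitochondrial ribosomal proteins. These counts changed with single mice and with the bulb covariate. Without WT-Veh replicate 1 they were 27 positive and 55 negative (median -0.10), without WT-Flx replicate 1 they were 64 positive and 18 negative (median 0.13), without WT-Flx replicate 2 they were 33 positive and 50 negative (median -0.044), and without WT-Flx replicate 3 they were 36 positive and 47 negative (median -0.025). With the level of olfactory bulb markers as a covariate they were 70 positive and 13 negative (median 0.21). Over all genes the median was between -0.010 and 0.0060 in these fits.

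With both treatments combined, HT mice had 1 member higher and 8 lower than WT mice at an unadjusted p under 0.05 (6.42% and 5.44% of all genes) and none at the adjusted threshold (0.0398%). The lower members of smallest p were Rpl30 (-0.26 ± 0.078, adjusted p = 0.288), Rpl23 (-0.27 ± 0.085) and Rpsa (-0.24 ± 0.086), and the higher ones Rpl7l1 (0.22 ± 0.10), Rpl24 (0.25 ± 0.20) and Rpl37 (0.12 ± 0.10), of which Rpl7l1 had an unadjusted p under 0.05. Means were higher for 19 and lower for 64 of the 83 members (51.1% and 48.9% of all genes). Over these members the median log2 change was -0.062, against 0.0044 over all 17567 genes, -0.087 over 809 other protein-coding genes with a short transcript and -0.10 over 78 genes of mitochondrial ribosomal proteins. These counts changed with single mice and turned with a covariate. Without WT-Veh replicate 1, whose Arid1b level lay in the HT-Veh range, they were 37 higher and 45 lower (median -0.0029). Without WT-Flx replicate 1, whose Arid1b level lay in that range too, they were 33 higher and 49 lower (median -0.017). With the level of olfactory bulb markers as a covariate they were 57 higher and 26 lower (median 0.033), and with that of short transcripts they were 63 higher and 20 lower (median 0.055). Over all genes the median was between 0.0050 and 0.0063 in these fits.

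With both genotypes combined, 13 members were lower and none higher after fluoxetine at an unadjusted p under 0.05 by limma, against 1.74% and 1.37% of all genes. None passed the adjusted threshold (0% of all genes), and the smallest adjusted p of a member was 1.00. Rpl34 (-0.30 ± 0.10, unadjusted p = 0.00755), Rps3 (-0.22 ± 0.075, 0.00874) and Rpl9 (-0.32 ± 0.12, 0.0119) were the lower members of smallest p. Rps27 (0.54 ± 0.29), Rpl21 (0.14 ± 0.090) and Rpl23 (0.10 ± 0.085) were the higher ones. Rps27 was at 356 in HT-Flx replicate 3, far above every other mouse. Leaving out 1 mouse brought its difference as low as 0.25. Means were higher for 19 and lower for 64 members (50.9% and 49.1% of all genes). Their median log2 change was -0.091, against 0.0019 over all 17567 genes, -0.044 over 809 other protein-coding genes with a short transcript and -0.029 over 78 genes of mitochondrial ribosomal proteins. The median over members stayed below 0 in all 29 alternative fits, from -0.14 to -0.013, though these fits share mice and are not independent checks. The combined comparisons use the same mice as the separate ones and add no independent samples.

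**Figure D4:**
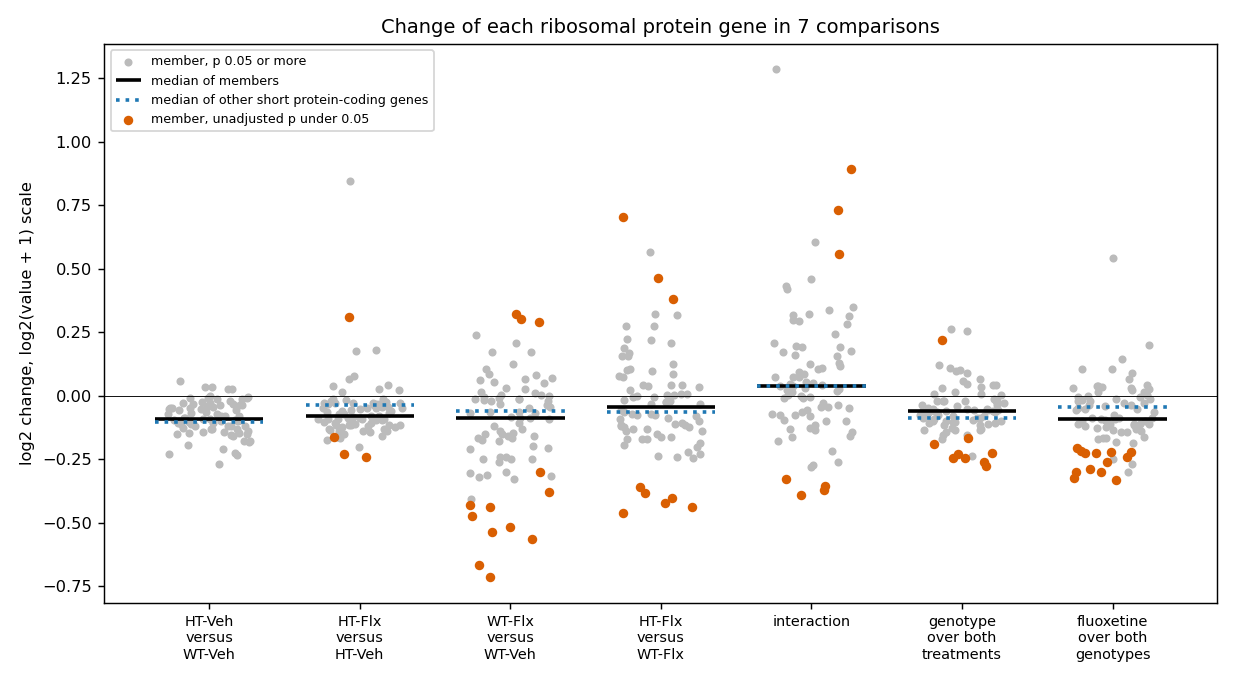
Log2 change of each member in 7 comparisons, on the log2(value + 1) scale. Orange points have an unadjusted p under 0.05 by limma, grey points do not, black lines are the median of the members and blue dotted lines the median of other protein-coding genes with a transcript of at most 1000 bases. The middle 50% of members is widest in the interaction and in WT-Flx versus WT-Veh, and the median of members lies within 0.05 of that of the other short genes in every comparison.

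Beyond their common level, the members differed in composition. Principal components of 81 members, without Rps27 and Rpl3l, gave a first component with 64.7% of the variance, on which all 81 loadings had the same sign. The second held 17.5%. On it the WT-Flx mice scored 0.402, 0.378, 0.190 and 0.523, and the other 12 mice between -0.328 and 0.083. At its positive end were Rpl23 (loading 0.251), Rpsa (0.248), Rpl21 (0.242), Rplp2 (0.212) and Rpl30 (0.204). At its negative end were Rpl24 (-0.282), Rpl22l1 (-0.268), Rpl7l1 (-0.227), Rpl9 (-0.219), Rps27l (-0.171) and Rps14 (-0.162). Across members, transcript length had a rank correlation of -0.520 with the first loading and of 0.346 with the second. The components were computed after earlier results were known and on the mice compared above, so they describe these libraries and carry no test. Olfactory bulb markers moved with the scores in part: WT-Flx replicates 1, 2 and 4 had bulb levels of 6.79, 7.32 and 8.61, the WT-Flx mouse of lowest score (replicate 3) had 4.41, and the highest of the other mice, WT-Veh replicate 1, had 9.09. Other mice went the other way. HT-Veh replicate 4 had a bulb level of 7.23 and a score of -0.031, and HT-Flx replicate 1 had 4.15 and 0.064. The part of the bulb markers in the second component was not tested.

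**Figure D5:**
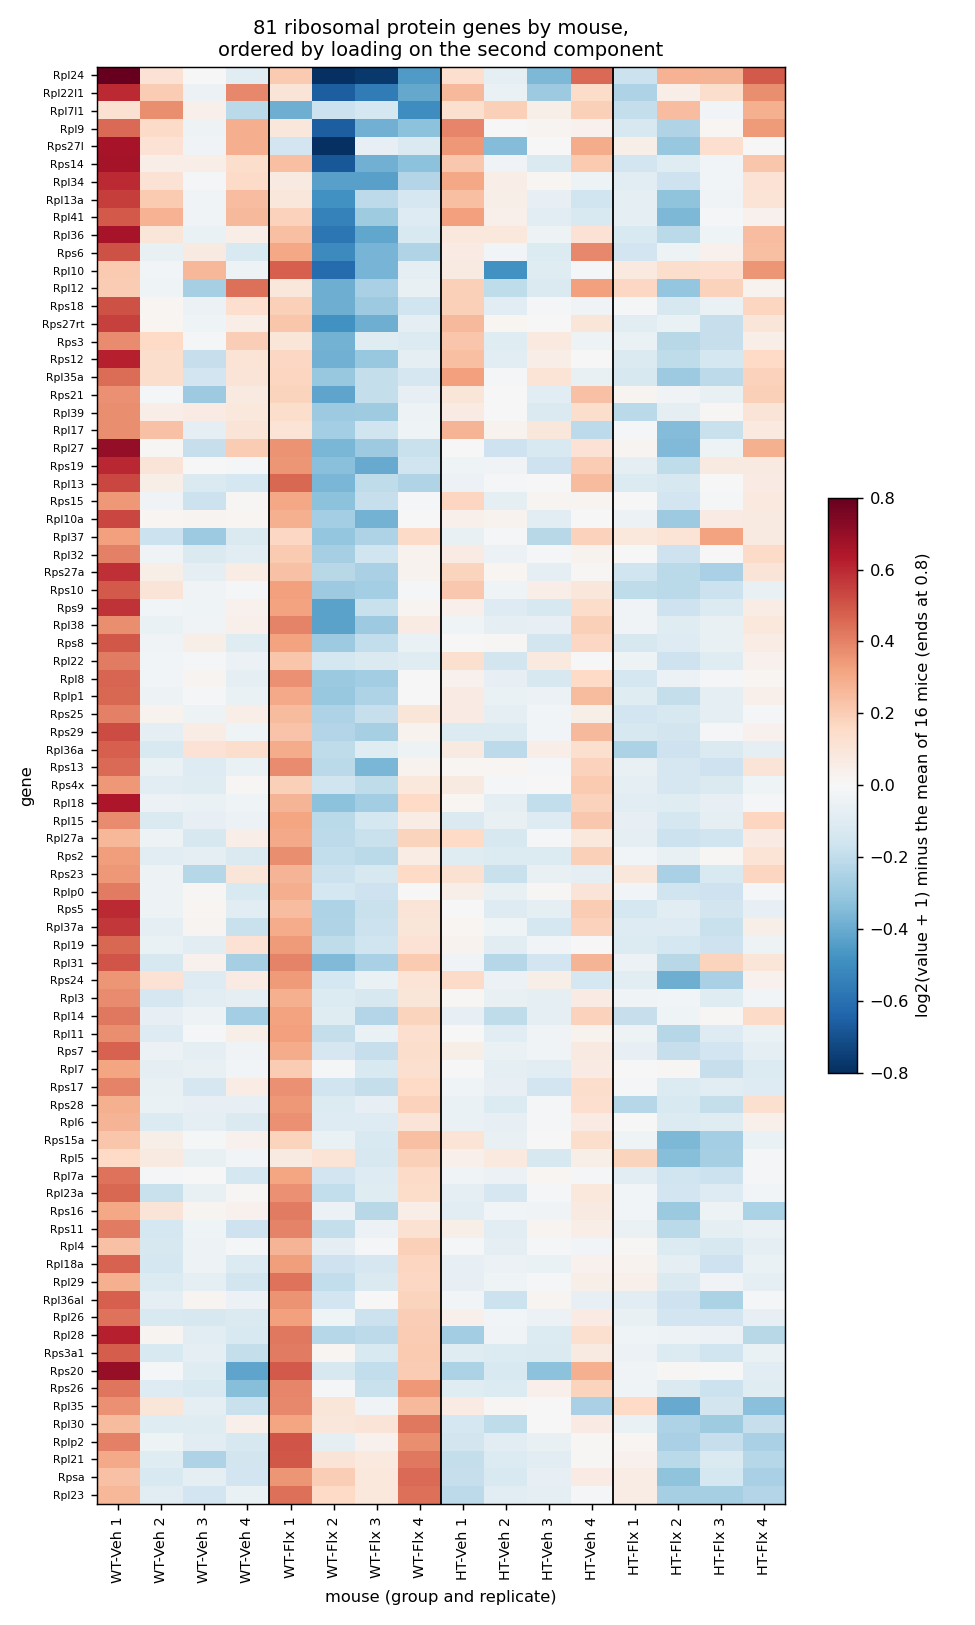
Log2(value + 1) of 81 ribosomal protein genes minus their mean over 16 mice, with genes in the order of their second loading and mice by group. Red is above and blue below the mean, and colours end at 0.8. WT-Veh replicate 1 is red throughout, and in WT-Flx the genes at the top, led by Rpl24, are mostly blue while those at the bottom, led by Rpl23, are red.

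Fau, whose symbol does not follow the pattern, encodes a small subunit protein joined to a ubiquitin-like one. It was at 2735 ± 620.3 in WT-Veh, 2532 ± 165 in HT-Veh, 2583 ± 541 in WT-Flx and 2404 ± 67.7 in HT-Flx, and its group means differed by less than the SD of WT-Veh.

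Genes that work with the ribosome were examined from lists. No gene of any list passed the adjusted threshold in the 7 comparisons by limma. Of 16 other mRNAs known for a TOP tract, 2 were higher in WT-Flx than in WT-Veh at an unadjusted p under 0.05, Nap1l1 (0.24 ± 0.085) and Npm1 (0.26 ± 0.11), where 2.2% of all genes were. In HT-Flx versus WT-Flx 4 of the 16 were lower (4.87% of all genes), with Npm1 (-0.31 ± 0.10) and Tpt1 (-0.32 ± 0.10) of smallest p. The median of these 16 was 0.051 and -0.15, beside -0.089 and -0.044 for the ribosomal proteins. Between HT-Veh and WT-Veh none of the 16 had an unadjusted p under 0.05, and Eef1b2 (-0.18 ± 0.10), an exchange factor of elongation, had the smallest.

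Of 34 ribosome biogenesis genes, 5 were higher in WT-Flx than in WT-Veh and none lower at an unadjusted p under 0.05, against 2.2% and 2% of all genes. Nop58, a core protein of small nucleolar particles, differed by 0.46 ± 0.12 and Ncl (nucleolin) by 0.27 ± 0.078. In HT-Flx versus WT-Flx 1 was higher and 6 were lower (5.58% and 4.87% of all genes), with Npm1, the nucleolar protein nucleophosmin and a gene of both lists, and Gar1 (-0.41 ± 0.13) of smallest p. The interaction had 4 negative genes (2.29% of all genes), led by Nop58 (-0.58 ± 0.15). Olfactory bulb markers were also higher in WT-Flx, as given above, and their part in these counts was not tested. In HT-Veh versus WT-Veh 2 were higher (2.63% of all genes), Nop58 (0.28 ± 0.11) and Dkc1 (0.22 ± 0.089), and in HT-Flx versus HT-Veh none had an unadjusted p under 0.05.

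None of 34 initiation factors had an unadjusted p under 0.05 in the 4 comparisons of 2 groups. Of all genes, 1.43% to 5.58% were higher and 1.64% to 4.87% lower at that p. Of 12 elongation and termination factors 1 had, Eef1d, which was lower in HT-Flx than in WT-Flx (-0.23 ± 0.10, against 4.87% of all genes). The genes named from 14 of mTOR and LARP1 signalling had an unadjusted p under 0.05 by limma. Eif4ebp1, the repressor of cap-dependent initiation that mTOR inactivates, differed by -0.47 ± 0.19 in HT-Veh and by -0.52 ± 0.22 in WT-Flx, each versus WT-Veh. It was the 1 lower gene of the list in each, against 2.26% and 2% of all genes. These comparisons share the WT-Veh mice. Rps6kb1, an S6 kinase, was the 1 gene higher in HT-Veh than in WT-Veh (0.17 ± 0.077, against 2.63% of all genes). Rps6kb2 was the 1 gene higher in HT-Flx than in HT-Veh (0.22 ± 0.10, against 1.43%). Rptor (0.22 ± 0.10) and Tsc1 (0.28 ± 0.12) were the 2 genes higher in HT-Flx than in WT-Flx, against 5.58% of all genes.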

How the data were processed

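RNA of the prefrontal cortex of 16 mice was sequenced by the authors as stranded poly-A libraries. Transcripts were quantified with Salmon 1.1.0 (GC bias correction) on GRCm38 and summed per gene with tximport, and the deposited signal is the normalized read count of DESeq2 1.30.1, per the submitters' processing notes and the study's methods. The values are not whole reads, so limma (3.58.1, R 4.3.3, intensity trend) was used on log2(value + 1), keeping genes that reached 10 in 4 or more of the mice fitted. P-values were two-sided and adjusted over all genes (Benjamini-Hochberg, 0.05). Single genes were also compared by exact permutation tests. Lengths and positions came from a GENCODE annotation of GRCm38, matched for 18411 genes. Members, lists and tests were chosen with earlier results of these data known.

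Named members were 16 set by role, the 3 of smallest p in each direction per comparison (3 in all for the interaction), those named after another member, and the 3 at either end of level per kb and of spread, and the 3 least correlated with the rest. From other lists, genes were named by smallest p. Others named, such as Rps14 and those named only for the second component, a window or an unadjusted p under 0.05, were chosen after their values were seen. The statistics were tested on simulated data with noise independent between genes and changes larger than nearly all of those seen here. The shared movement of the members was thus not covered by that test. No replicate block was used. Alternatives tried were no filter, pseudocounts of 0.1 and 8, a mean of at least 100, 3 rescalings, all 4 groups in the fit, sample weights, the replicate block, 2 covariates and leaving out mice.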

Additional observations from a re-analysis of the deposited data

Results flagged for a closer look

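Within groups of 4 mice, a sample was set apart where its gap to the nearest other mouse, divided by the range of the group, exceeded the 95% critical value of Dixon. This was looked at in 88 groups of 4, for the mean over members and 21 members, and chance sets apart about 1 in 20. The mean log2 level of the members was set apart in WT-Veh (ratio 0.900), where replicate 1 was at 11.51 and the others at 11.01 to 11.06. In the same mouse Rplp2 (0.840), Rps14 (0.850) and Rps27rt (0.845) were set apart, at 2601, 4991 and 2285 normalized read counts. In that mouse the members held 1.22% of the summed counts, mitochondrially encoded genes held 9.06% (range of all mice 8.94% to 12.0%), blood markers had a mean log2 level of 9.80 (other mice 8.27 to 9.16), and mitochondrial ribosomal proteins of 9.36. Their part in its high level was not tested.

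Rpl9 was set apart in HT-Veh (0.915) by replicate 1 at 5980.3. In HT-Flx, Rpl23 (0.897) was set apart by replicate 1 at 3685, Rps27 (0.8291) by replicate 3 at 356, and Rpl3l (0.899) by replicate 2 at 13.9.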

How the results depend on the processing

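Leaving aside the fit with a single WT-Flx mouse, the number of members past the adjusted threshold was 0 except in WT-Flx versus WT-Veh. There it was 1 with the short transcript covariate (6 of all 16833 genes), 3 without WT-Veh replicate 1 and WT-Flx replicates 1 and 4 (25 of all 16243 genes), and 0 otherwise. The mice left out in that last fit, and in the one with a single WT-Flx mouse, were chosen after seeing the data. Leaving out 1 mouse at a time called 0 in all. In HT-Veh versus WT-Veh, leaving out 1 mouse turned the sign of Rpl7l1 (-0.038 to 0.16), Rpl37 (-0.042 to 0.16) and Rps4x (-0.022 to 0.13). The median over members changed sign in 6 of 22 alternatives in HT-Flx versus WT-Flx (-0.12 to 0.13), in 5 of 22 in HT-Veh versus WT-Veh (-0.13 to 0.038), in 2 of 22 in WT-Flx versus WT-Veh (-0.21 to 0.055), in 5 of 29 for genotype and in 4 of 29 for the interaction. The alternatives share mice, and in some comparisons some of them were the same fit, so these counts are not of independent checks. The SD of the members' median between single mice of a group was 0.209 on the log2 scale. It is not a measure of these shifts, which are in differences between group means. Rescaling the members to a common median moved the median of all genes to 0.14 (WT-Flx versus WT-Veh) or 0.11 (HT-Veh versus WT-Veh). Replicate numbers come from the titles, and the deviations of same-numbered mice from their group means did not correlate above 0.1 in every pair (lowest correlation per comparison -0.23 to -0.022; in WT-Flx versus WT-Veh 0.31, 0.11, 0.19 and -0.20), and no label says that a number marks a litter or batch, so the numbers were not taken to pair the mice. The replicate block raised the members at an unadjusted p under 0.05 from 13 to 28 (WT-Flx versus WT-Veh) and called 0 at the adjusted threshold. It also raised all genes at that unadjusted p from 707 to 1237 of 16833. Over all alternatives that unadjusted count of members ran from 0 to 6 for HT-Veh versus WT-Veh, 1 to 9 for HT-Flx versus HT-Veh, 8 to 41 for WT-Flx versus WT-Veh, 1 to 27 for HT-Flx versus WT-Flx, 4 to 24 for the interaction, 3 to 19 for genotype and 6 to 27 for fluoxetine. All genes at that p moved too. The fit with 41 members had 2562 of 16243 genes (main fit 707 of 16833). The fit with 24 had 1634 of 17230 (main fit 754 of 17567). For fluoxetine, the fit with 27 had 1031 of 17230 (main fit 546 of 17567). For HT-Flx versus WT-Flx, the fit with 27 had fewer, 1249 of 16431 (main fit 1754 of 16788). The genotype fit with 19 also had fewer, 1380 of 17567 (main fit 2083). The causes were not tested. The depth is unknown, so no counting error can be given for low members such as Rpl3l.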
